A study of Mus musculus with 2 samples.

Results

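The colony-stimulating factors and their receptors are 8 genes, chosen by gene symbol in the transcript identifiers of the deposited tables, out of 55536 mouse genes in those tables. Csf1, Csf2 and Csf3 encode the secreted factors M-CSF, GM-CSF and G-CSF. Csf1r, Csf2ra, Csf2rb, Csf2rb2 and Csf3r encode receptor chains. They were measured in primary macrophages grown out of the bone marrow of C57BL/6J mice, in polyadenylated RNA taken 120 minutes after stimulation at 100 ng/ml. The labels name the stimulus in 2 ways, as lipid A, the membrane anchor of lipopolysaccharide that the receptor Tlr4 senses, and as a protein, lipoprotein A. The study has 1 group of 2 libraries, numbered biological replicates 1 and 2, which share a donor record. Whether they came from separate animals is not stated. No transgene or deletion is given, and sex and age were not collected. No unstimulated library was analysed here, so the values describe stimulated cells and say nothing of what the stimulus changed.

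Csf1 signals through a single-chain receptor tyrosine kinase, Csf1r, which macrophages need for survival and growth, and macrophages are commonly grown from marrow in Csf1. Csf2 and Csf3 signal through cytokine receptors without a kinase of their own, which work through JAK kinases and STAT factors. The Csf2 receptor joins a private chain, Csf2ra, to a shared beta chain, Csf2rb. Mice carry another beta chain, Csf2rb2, which serves Il3. Csf3r is best known from neutrophils and their precursors. Csf2 and Csf3 mRNAs are textbook examples of inducible messages that decay quickly through AU-rich elements, repeats of AUUUA in the 3′ UTR.

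The gene tables held 33272581 estimated counts on mouse genes in replicate 1 and 50266403 in replicate 2. A gene at 0 counts could still have up to 3, which is 0.0902 and 0.0597 CPM (counts scaled by library total) and covers counting error only. Levels are given as TPM, which scales for transcript length and library size, so different genes can be set side by side. Values with ± are mean and SD with n = 2. At least 1 TPM in both libraries was reached by 10285 (18.5%) of 55536 genes. Nuclear rRNA genes took 6.82% and 10.5% of TPM. All 15 macrophage markers examined, Csf1r among them, reached that level, with a median of 694 TPM and with Lyz2, Gpnmb, Ctsd and Cd68 as the highest.

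As sums, receptor chains stood well above ligands, and Csf1r led the receptors as Csf1 led the ligands. The 5 receptor chains summed to 1015 TPM in replicate 1 and 1117 TPM in replicate 2, and the 3 ligands to 165 TPM in both. Csf1r held 61.8% and 65.2% of the receptor sum. Csf1 held 85.3% and 99.0% of the ligand sum. The order of mean levels ran from Csf1r through Csf1, Csf2rb, Csf2rb2, Csf2ra, Csf3r and Csf2 down to Csf3. Csf1, Csf2rb and Csf2rb2 could not be ordered beyond their spread, since their order differed between the libraries. The ranges of Csf2 and Csf3 overlapped across libraries, although Csf2 was the higher of the pair in each. The other neighbours kept the same order in both libraries with ranges that did not overlap. For Csf2ra and Csf3r this order held on TPM of the whole gene and turned on other measures. Transcripts with the complete coding sequence summed to 26.45 and 26.54 TPM for Csf2ra and to 41.5 and 32.5 TPM for Csf3r. Counts were 1223 and 1752 for Csf2ra and 2827 and 3222 for Csf3r. Csf1r ranked 193 among all 55536 genes by mean TPM, Csf2ra 2036, Csf3r 2723, Csf2 5578 and Csf3 10870.

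**Figure D1:**
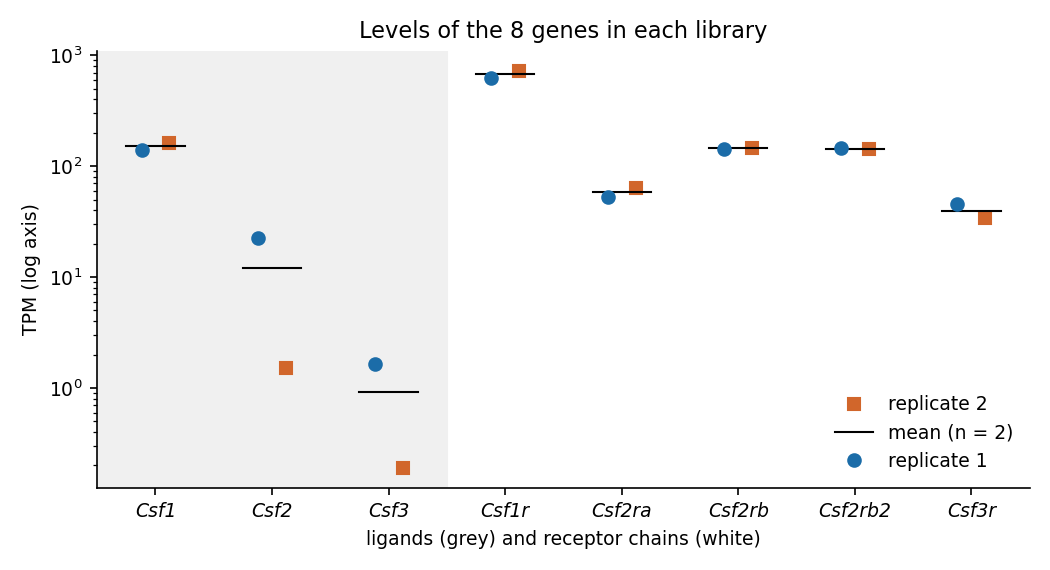
TPM of the 8 genes (log axis) in replicate 1 (circles) and replicate 2 (squares), with bars at the mean of n = 2 and ligands on grey. Csf1r sits highest at 628 and 728 TPM, and the libraries lie close together for every gene except Csf2 and Csf3.

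Csf1, the macrophage growth factor (mm10, chr3:107741048-107760469, minus strand), stood at 141 TPM in replicate 1 and 163 TPM in replicate 2, or 152 ± 16.1 TPM. These rest on 10217 and 16749 counts. Its level was therefore slightly higher in replicate 2, and both libraries held abundant message. The leading transcript, Csf1-201, carried 64.3% of the gene's TPM in replicate 1 and 64.2% in replicate 2. It shares its coding sequence of 552 codons with Csf1-203. They differ in the 3′ UTR, with 2111 against 259 bases, and in the 5′ UTR, with 406 against 179 bases. Together these transcripts held 66.3% and 69.4% of Csf1 TPM.

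A shorter Csf1 precursor, known as the form that stays at the cell surface, is encoded by Csf1-202 with 257 codons. Its share depended on the quantification. In the first transcript table, with RSEM column names, Csf1-202 held 22.4% and 14.5% of Csf1 TPM, or 31.4 and 23.7 TPM. In the second, with kallisto column names, it held 5.31% and 1.78%, or 6.73 and 2.46 TPM. Replicate 1 was the higher in both tables, but the size of the short form was not settled by these files. No stretch of 31 bases in Csf1-202 was absent from all other Csf1 transcripts. The 552-codon product held 78.2% and 77.3% in the second table, so it led in both.

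Csf2, the granulocyte-macrophage factor (chr11:54247271-54249667, minus strand), stood at 22.6 TPM in replicate 1 and 1.52 TPM in replicate 2. The counts were 263 and 26. The deposited lower and upper bounds for its TPM were 19.1 to 24.3 in replicate 1 and 0.992 to 2.13 in replicate 2, and did not overlap. The mean of 12.04 ± 14.9 TPM therefore describes neither library. Csf2 has 1 annotated transcript, of 141 codons. An antisense gene, Gm12223, covers 2068 bases of the locus and was at 0 counts in both libraries. Csf3, the granulocyte factor (chr11:98701263-98703629, plus strand), was the lowest of the 8 at 1.65 and 0.190 TPM, from 42 and 7 counts. It too has 1 annotated transcript, of 208 codons.

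The 3 ligand messages differ in their AU-rich elements, which are shown here because the element is the feature through which decay of such messages is known to work. Each line gives 30 bases of the 3′ UTR from GENCODE M21 in mm10, 5′ to 3′ on the message strand and with T for U, around the densest run of ATTTA, and capitals mark each ATTTA.
Csf2-201 (chr11:54247329-54247358): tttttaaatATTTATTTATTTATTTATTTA
Csf3-201 (chr11:98702984-98703013): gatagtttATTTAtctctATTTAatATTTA
Csf1-201 (chr3:107741109-107741138): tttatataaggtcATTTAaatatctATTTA
In Csf2 5 copies overlap without a break, whereas the 3 copies in Csf3 and the 2 in Csf1 stand apart or nearly so.

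Over the whole 3′ UTR, Csf2 held 9 copies of ATTTA in 317 bases, or 28.4 per 1000 bases, overlapping copies counted. Csf3 held 6 in 669 bases, or 8.97 per 1000 bases. Csf1 held 4 in 2111 bases, or 1.90 per 1000 bases. Among 20928 genes with a complete 3′ UTR, taking the longest of each, the median was 1.24 per 1000 bases. Of those genes 0.0860% were as dense as Csf2, 1.62% as dense as Csf3 and 37.6% as dense as Csf1. By number of copies, whatever the length, 8.55% held as many as Csf2, 16.9% as many as Csf3 and 27.9% as many as Csf1. The longer element TTATTTATT, searched on the message strand, occurred 4 times in Csf2 and in neither of the other ligands, and 7.60% of all genes held it. The receptor messages Csf2ra, Csf2rb, Csf2rb2 and Csf3r held no ATTTA, which 65.1% of genes have, and Csf1r held 3 in the 1669 bases of its longest annotated 3′ UTR. These are descriptions of letters and not measurements of decay.

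Genes listed as Csf mRNA decay and stability factors were all present. All 9 were at 1 TPM or more in both libraries, with a median of 40.6 TPM. Zfp36, which encodes tristetraprolin and promotes decay of Csf2 mRNA, stood at 208 and 153 TPM. Its relatives Zfp36l1 and Zfp36l2 stood at 54.9 and 26.4 TPM and at 13.3 and 9.40 TPM. Hnrnpd, which encodes the AU-binding protein AUF1, was at 132 and 116 TPM, and Elavl1, for the stabilising protein HuR, at 49.5 and 44.98 TPM. The endonuclease gene Zc3h12a was at 96.8 and 99.2 TPM. Khsrp, Rc3h1 and Tia1 stood at 23.6 ± 1.89, 15.0 ± 0.750 and 2.92 ± 0.863 TPM. None of the 9 lay 2-fold or more apart between the libraries, and Zfp36l1 came furthest at 1.90-fold lower in replicate 2.

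Csf1r, the receptor kinase (chr18:61100598-61132149, plus strand), stood at 628 TPM in replicate 1 and 728 TPM in replicate 2, from 52557 and 90408 counts. Its mean was 678 ± 71.1 TPM, and it lay 4.46-fold above its ligand Csf1 in replicate 1 and 4.45-fold above it in replicate 2. Csf1r-201 and Csf1r-202 encode the same 977 codons and together held 99.9% and 99.7% of Csf1r TPM. They differ in the 5′ UTR, with 282 bases in Csf1r-201 and 98 in Csf1r-202, and at the 3′ end, where Csf1r-202 runs on for 1015 bases. Of these, 873 lie opposite the neighbouring gene Hmgxb3, which was at 8.60 and 5.81 TPM. In the first table Csf1r-202 held 15.3% and 18.8% of the gene's TPM, and in the second 1.88% and 2.08%. Whether the counting used strand is not given in the sources used here, so reads of the 2 genes in this stretch cannot be told apart.

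Csf2ra, the private chain of the Csf2 receptor (chr19:61223957-61228429, minus strand), stood at 52.4 and 64.1 TPM, from 1223 and 1752 counts. The difference in TPM lay in short or non-coding models. The complete coding transcript Csf2ra-201, of 388 codons, stood at 26.5 TPM in both libraries. Models under 1000 bases held 42.1% and 55.1% of the gene's TPM but 10.1% and 13.3% of its counts. The 330-base model Csf2ra-204 alone held 17.3% and 28.0% of TPM on 15.9 and 47.8 counts. By counts Csf2ra was 1.06-fold higher in replicate 2, and the counting interval of that difference included no change.

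The beta chains Csf2rb (chr15:78325752-78353847, plus strand) and Csf2rb2 (chr15:78282507-78305721, minus strand) lie 20030 bases apart in opposite directions. Their TPM were close in each library. Csf2rb stood at 144 and 147 TPM, and Csf2rb2 at 145 and 143 TPM. By counts they were not equal. Csf2rb2 held 60.3% of the pair's counts in replicate 1 (95% Clopper-Pearson interval 59.7 to 60.9) and 59.8% in replicate 2 (59.2 to 60.3). On TPM the share was 50.2% and 49.3%, and on the leading complete coding transcripts alone 61.1% and 59.9%. The transcripts Csf2rb2-201, of 878 codons, and Csf2rb-201, of 896 codons, stood at 133 and 127 TPM and at 85.1 and 84.8 TPM, a 1.57-fold and 1.49-fold excess of Csf2rb2-201.

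The TPM and count shares differed mainly through 1 short model. Csf2rb-202, a 397-base fragment with an incomplete coding sequence of 46 codons, held 38.8% and 39.9% of Csf2rb TPM but 1.82% and 1.97% of its counts. Every stretch of 31 bases in it also occurs in Csf2rb-201. In the second table it held 32.2% and 27.7%. Without that fragment the complete Csf2rb message was the lower of the pair in both libraries.

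Csf2rb and Csf2rb2 are close copies, and reads can be divided between them only where they differ. In a global alignment of Csf2rb-201 and Csf2rb2-201 the coding part was 95.3% identical, with 126 differences in 2685 aligned bases. The 5′ UTR was 98.4% and the 3′ UTR 90.2% identical, beside 419 gap columns in the 3′ UTR. The longest identical run was 242 bases. Of all stretches of 31 bases in Csf2rb-201, 28.9% occurred in Csf2rb2 transcripts. The lines below show the 60 bases of coding sequence within 1 exon of each gene where the copies differ most, at 13 positions in capitals, since such places let counts be assigned to one copy.
Csf2rb-201 (mm10, chr15:78338893-78338952, plus strand): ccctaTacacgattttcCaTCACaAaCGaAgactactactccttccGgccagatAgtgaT
Csf2rb2-201 (mm10, chr15:78294379-78294438, minus strand): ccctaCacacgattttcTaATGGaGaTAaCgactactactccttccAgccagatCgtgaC
The shares above still carry the uncertainty of how shared reads were divided, which the binomial interval does not cover.

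**Figure D2:**
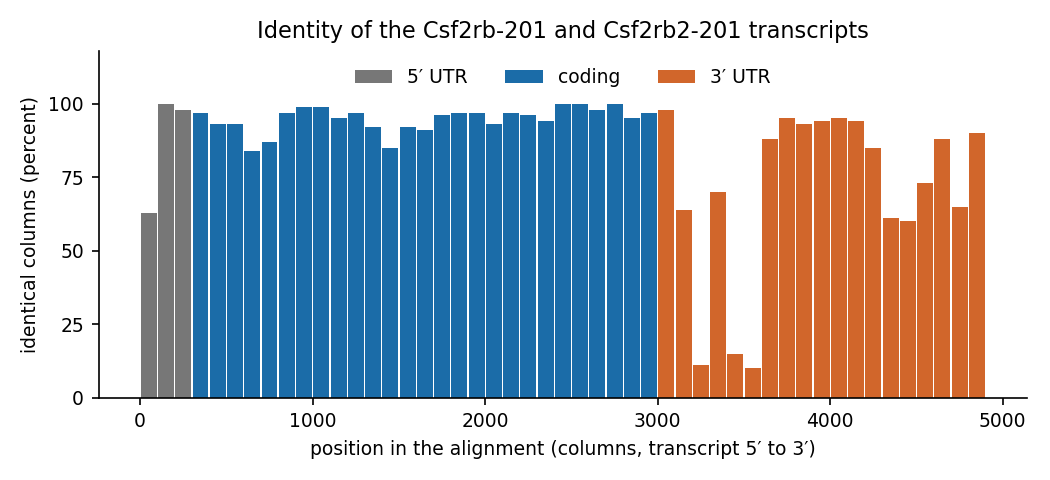
Identical columns (percent) in windows of 100 columns along the alignment of Csf2rb-201 and Csf2rb2-201, from the 5′ to the 3′ end, coloured by region. The coding windows stay high, 4 windows are identical throughout, and the lowest window, at 10%, lies in the gapped 3′ UTR.

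Csf3r, the Csf3 receptor (chr4:126024550-126044440, plus strand), stood at 45.3 TPM in replicate 1 and 34.4 TPM in replicate 2, from 2827 and 3222 counts. Its TPM was thus lower in replicate 2. Csf3r-201 and Csf3r-202 encode the same 837 codons and start 2742 bases apart, with 45 and 365 bases of 5′ UTR. The tables disagreed on which start was used. Csf3r-201 led in the first with 62.7% and 69.1% of Csf3r TPM, and held 27.2% and 17.6% in the second. Csf3r-202 held 28.9% and 25.4% in the first and led the second with 65.3% ± 5.58. The product was the same either way, at 93.1% ± 2.04 of TPM in the first table and 87.7% ± 1.18 in the second. Of the 31-base stretches of Csf3r-201, 23.3% also occur in AC105061.2, a processed pseudogene on chromosome 19, which had 0 counts in both libraries. The leading transcripts of Csf1, Csf3 and Csf1r shared no such stretch with any other gene's transcripts.

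**Figure D3:**
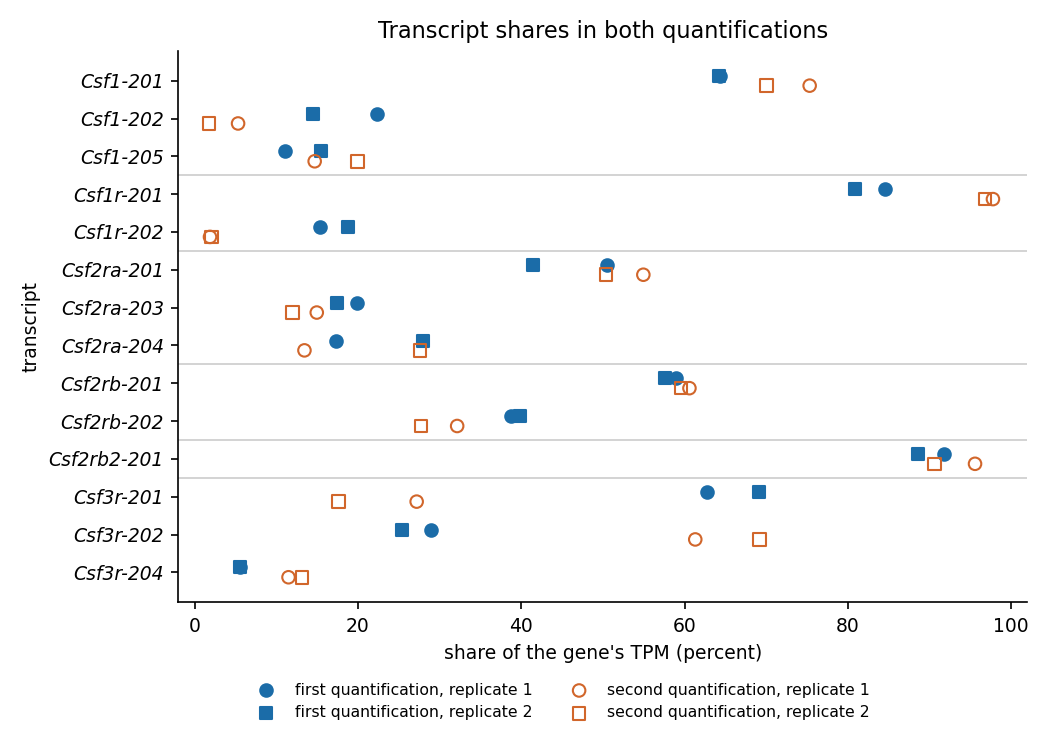
Share of the gene's TPM (percent) held by each transcript that reached 10% in any library or table, for the 6 genes with several transcripts. Filled blue marks are the first quantification, open orange marks the second, circles replicate 1 and squares replicate 2. Csf3r-201 and Csf3r-202 change places between the tables, and Csf1-202 and Csf1r-202 are lower in the second.

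Set against its own receptor within each library, Csf1 was steady while Csf2 and Csf3 were not. The TPM of Csf1 was 0.224 of that of Csf1r in both libraries. Csf2 was 0.431 of Csf2ra in replicate 1 and 0.0237 in replicate 2. Csf3 was 0.0365 of Csf3r in replicate 1 and 0.00553 in replicate 2. Every ligand was thus below its receptor in both libraries. With the complete coding transcript Csf2ra-201 in place of the whole gene, Csf2 came to 0.853 and 0.0573 of Csf2ra.

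Between the libraries, Csf2 and Csf3 lay far apart, Csf3 on few counts, and the other 6 genes lay close. Ratios were taken for the 10445 genes whose counts averaged at least 50, on counts scaled with TMM factors, which correct for library size and composition. With 1 library on each side these ratios have no replicate check and no p-value. Of those genes 417 (3.99%) lay 2-fold or more apart, 224 (2.14%) lower and 193 (1.85%) higher in replicate 2. Among the 8, 7 passed the count minimum and 1 of them, Csf2, was 2-fold or more apart. Csf2 was 13.6-fold lower in replicate 2 (95% counting interval 9.09 to 21.2), a log2 ratio of -3.77, the 4th lowest of all 10445 genes. Csf3, at a mean of 24.5 counts, did not pass. Its log2 ratio was -3.01 (counting interval -4.41 to -1.846).

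The other 6 lay near the middle of all genes, whose median log2 ratio was 0.03 and whose median absolute log2 ratio was 0.24. Csf1r and Csf1 were 1.28-fold and 1.22-fold higher in replicate 2. Csf2ra and Csf2rb, the chains of the Csf2 receptor, were 1.06-fold and 1.07-fold higher, and Csf3r was 1.18-fold lower. Csf2rb2 was 1.05-fold higher on scaled counts, but its sign turned on TPM, to a log2(TPM + 1) ratio of -0.02. Differences of this size were close to the spread of all genes between the libraries, a biological coefficient of variation of 21.5%. In bulk samples fewer cells that make Csf2 and less Csf2 RNA per cell cannot be told apart.

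**Figure D4:**
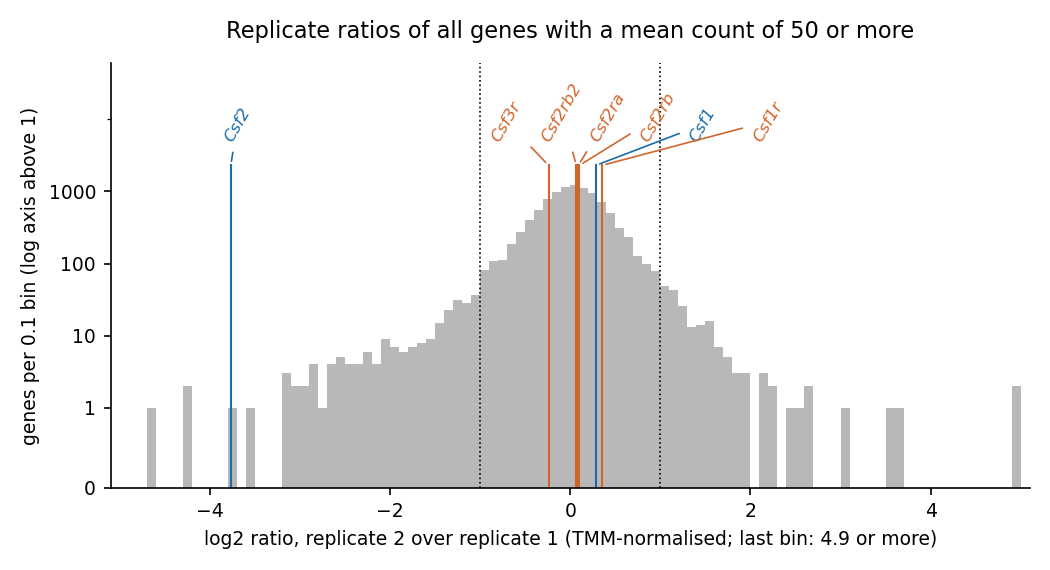
Log2 ratio of replicate 2 over replicate 1 for the 10445 genes tested, as the number of genes per bin (log axis above 1), with dotted lines at 2-fold. Coloured lines mark the 7 genes tested of the 8, ligands in blue and receptor chains in orange: Csf2 stands at -3.77 and the other 6 lie inside the 2-fold lines.

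Markers of granulocytes moved the same way as Csf2. Of 17 granulocyte markers other than Csf3r, 6 reached 1 TPM in both libraries, and all 17 summed to 564 TPM in replicate 1 and 85.2 TPM in replicate 2. All 6 that passed the count minimum were lower in replicate 2, 5 of them by 2-fold or more, with a median log2 ratio of -2.73. S100a9 was at 266 and 41.2 TPM and S100a8, its partner in calprotectin, at 167 and 20.5 TPM. Ngp, for a granule protein, stood at 67.5 and 3.21 TPM. None of the 17 was at 0 counts in both libraries, but some lay near the floor of 3 counts. Ly6g had 4 and 0 counts, Retnlg 3 and 1, and Cxcr2 9 and 5. Csf3r, also a granulocyte gene, was 1.18-fold lower. The part of these cells in the Csf2 result and in the level of Csf3r was not tested.

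Markers of lymphocytes, mast cells and stroma, which can make Csf2 or Csf1, were scarce apart from Il7r. Of 12 lymphocyte markers 2 reached 1 TPM in both libraries, Il7r at 85.4 and 61.5 TPM and the B cell gene Cd79b at 2.33 and 1.38 TPM. The list summed to 89.0 and 63.1 TPM, nearly all of it Il7r, and Cd3g, of the T cell receptor, had 3 and 0 counts. Of 10 mast cell and basophil markers none reached 1 TPM in both libraries and the list summed to 3.14 and 2.61 TPM. Mcpt4, Tpsab1, Tpsb2, Cma1 and Ms4a2 were at 0 counts in both. The basophil protease gene Prss34 had 27 and 1 counts, Mcpt8 7 and 1, and Cpa3 17 and 0. Kit, the 1 gene of this list with enough counts for a ratio, went the other way. It had 57 and 373 counts, or 0.57 and 2.53 TPM, and was 4.86-fold higher in replicate 2. Of 12 stromal and endothelial markers 1 reached 1 TPM in both, the endothelial receptor gene Kdr at 3.85 and 9.76 TPM, and the list summed to 7.28 and 12.5 TPM. The part of these cells in the levels of Csf1 and Csf2 was not tested.

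**Figure D5:**
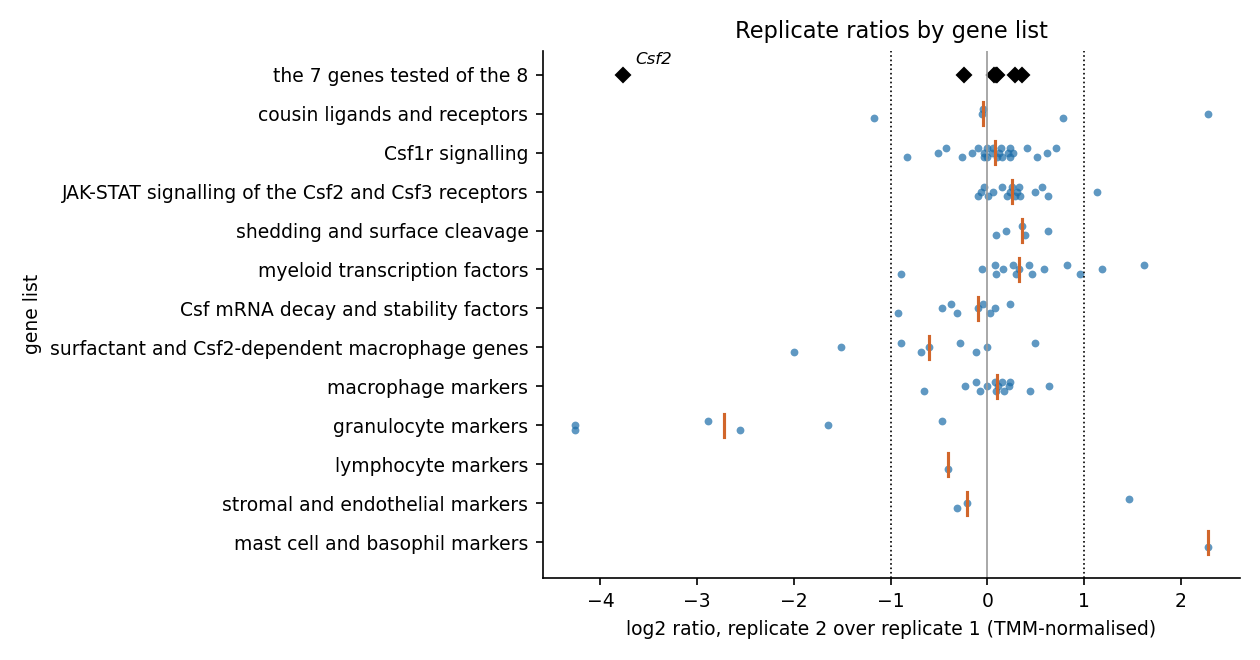
Log2 ratio of replicate 2 over replicate 1 for the listed genes that passed the count minimum (points), with the median of each list (orange bar) and dotted lines at 2-fold. The top row holds the 7 genes tested of the 8 (diamonds), and Csf2 at -3.77 lies among the granulocyte markers and far from the signalling lists. A gene that belongs to 2 lists is plotted in both.

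Among related ligands and receptors only a few were detected. Of 14 listed, 4 were at 1 TPM or more in both libraries. Il34, the other known ligand of Csf1r, was at 0 counts in both, so Csf1 was the only Csf1r ligand found. Il3 and Il5, which signal through the beta chains, were also at 0 counts, as were Thpo, Epo and Ptprz1. Il3 lies 15635 bases from Csf2. Il3ra, the private chain of the Il3 receptor, was present at 28.3 and 25.8 TPM. The growth factor genes Kitl and Flt3l stood at 3.39 and 3.22 TPM and at 2.88 and 4.20 TPM, and the erythropoietin receptor gene Epor at 3.81 and 1.55 TPM. Kit, a receptor kinase related to Csf1r, had 57 and 373 counts and was 4.86-fold higher in replicate 2, opposite in direction to Csf2.

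The signalling machinery below the receptors was present throughout. All 24 listed genes of Csf1r signalling were at 1 TPM or more in both libraries, with a median of 50.6 TPM against 13.0 TPM over the 10755 genes at 1 TPM or more on average. Tyrobp, the adaptor DAP12, led at 2630 and 3192 TPM, followed by the adaptor gene Grb2 at 360 and 331 TPM. The kinase genes Mapk3 and Lyn stood at 130 and 131 TPM and at 130 and 128 TPM. None of the 24 was 2-fold apart, and the kinase gene Fgr came furthest, at 2.07 and 1.07 TPM.

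All 17 JAK-STAT genes listed for the Csf2 and Csf3 receptors were also at 1 TPM or more in both, with a median of 97.5 TPM. Socs3, an inhibitor that binds Csf3r, led at 617 and 589 TPM. The survival genes Mcl1 and Pim1 stood at 403 and 424 TPM and at 307 and 264 TPM. Of the 17, 1 was 2-fold or more apart, the inhibitor gene Socs2, 2.20-fold higher in replicate 2.

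Genes for shedding of Csf1 and Csf1r from the cell surface were mostly expressed. Of 6 listed, 5 were at 1 TPM or more in both libraries. The protease gene Adam17, which cleaves Csf1r, stood at 76.1 and 90.0 TPM, its partner gene Rhbdf2 at 71.4 and 85.5 TPM, Adam10 at 36.2 and 38.0 TPM and Rhbdf1 at 4.10 and 2.36 TPM. The proprotein convertase gene Furin was the highest at 80.8 and 116 TPM.

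Among 16 myeloid transcription factors 13 were at 1 TPM or more in both libraries. Spi1, which encodes PU.1, a known activator of Csf1r, Csf2ra and Csf3r, stood at 328 and 322 TPM. Irf8 stood at 150 and 244 TPM, Maf at 55.2 and 77.2 TPM and Ets2 at 50.04 and 50.9 TPM. Of 15 with enough counts, 2 were 2-fold or more apart and both were higher in replicate 2. Cebpd came furthest, 3.06-fold higher.

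Genes listed as surfactant-related or Csf2-dependent in macrophages were mostly lower in replicate 2. Of 12 listed, 10 were at 1 TPM or more in both libraries. Of the 9 with enough counts, 8 were lower in replicate 2. Lower by 2-fold or more were 2 of the 9, beside 2.14% of all genes tested. These 2 were the fatty acid receptor gene Cd36, at 720 and 164 TPM, and the fatty acid binding gene Fabp4, at 640 and 206 TPM. Cd74, of the MHC class II pathway, went the other way at 398 and 513 TPM, and the cholesterol exporter gene Abcg1 stood at 54.7 and 50.3 TPM. The list's median log2 ratio was -0.60 beside 0.03 for all genes. With 2 libraries no relation between these genes and Csf2 could be tested.

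The genes nearest in level to Csf2 over the 2 libraries, among 9972 protein-coding genes, were Ppbp, Hbegf and Ltf. Likeness was the Euclidean distance in log2(TPM + 1), and the distances were 0.66, 0.88 and 0.93. Ppbp, a platelet chemokine gene, stood at 13.9 and 1.55 TPM, the growth factor gene Hbegf at 12.7 and 2.35 TPM, and Ltf, for lactoferrin of neutrophil granules, at 11.5 and 1.76 TPM. For Csf1r they were Cd83 (0.07), Rps6 (0.08) and C5ar1 (0.08), at 659 and 719, 601 and 705, and 621 and 690 TPM. Over 2 libraries such likeness is mostly likeness of level.

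RefSeq promoter windows, from 250 bases before to 50 after a start in GRCm38.p6, matched 5 of the 8 genes, Csf1, Csf2, Csf2ra, Csf2rb2 and Csf3r. Both strands were searched and overlapping matches were counted. The ETS and PU.1 core AGGAAG occurred 4 times in the Csf3r window, and 0.432% of 32851 windows held that many. It occurred 2 times each in Csf2ra and Csf2rb2 and was not found in the windows of Csf1 and Csf2, while 35.4% of all windows held it. The NF-kB pattern, GGG and CC with 5 bases of any kind between them, occurred 5 times in the Csf1 window, where 50.8% of all windows held at least 1 and 3.16% as many. It occurred 3 times in Csf3r, 2 times in Csf2ra and 1 time in Csf2. The CRE pattern TGACGTCA was found in Csf2ra and in 1.79% of windows, and the C/EBP pattern TTNNGCAA in Csf2 and in 10.8%. The AP-1 pattern TGANTCA was in none of the 5 windows and in 7.81% of all. The Csf2 window starts from a RefSeq start 232 bases upstream of the GENCODE 5′ end, so it does not cover the sequence just before the latter. The Csf3r window contains the upstream start, that of Csf3r-202, at position -109 relative to the RefSeq start used. Most of its AGGAAG and NF-kB matches therefore lie downstream of the Csf3r-202 start and not before it.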

How the data were processed

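Per the file headers, the authors' gene table and first transcript table hold expected counts, TPM with lower and upper bounds (signal values, whose level is not stated) and, for transcripts, the percent share of the gene, with column names as in RSEM output. A second deposited transcript table gives TPM and estimated counts, with column names as in kallisto output. Assembly mm10 and GENCODE M21 come from the deposited descriptions. Versions of the authors' programs, the aligner and strand handling are not given in the sources used here. Short transcript models weigh more in TPM than in counts.

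Expected counts were rounded. Ratios used TMM factors from edgeR 4.0.16 in R 4.3.3, with DESeq2 1.42.0 size factors as an alternative, and the spread used edgeR's common dispersion over 12178 genes. Intervals are exact Clopper-Pearson at 95%, and they leave out all but counting error, as does the floor of 3 counts, since no molecular identifiers are stated for the reads. On simulated libraries of 10445 genes, 197 of 200 genes changed 4-fold were found 2-fold apart, as were 3.14% of unchanged genes. List medians are over genes at 1 TPM or more on average. Alignments and searches used Biopython 1.88 and Python 3.11.15 on GENCODE M21 transcripts, and plots matplotlib 3.10.9.

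All 162 genes of the 12 lists were found. Members, lists and alternatives were chosen with earlier results of these data known. Genes named are all members and, per list, the 4 highest by mean TPM and the gene furthest apart between the libraries (absolute log2 ratio) among those averaging at least 50 counts. In lists of 10 genes or fewer every gene at 1 TPM or more in both libraries was named, as were the 3 genes nearest to Csf2 and to Csf1r and markers at 0 counts. Csf2ra-204 and Csf2rb-202, Gm12223, Hmgxb3, AC105061.2, Ly6g, Retnlg and Cxcr2 fall outside that rule and were chosen after their values were seen. One gene that the rule names is not reported here. No p-values are given because the labels give 1 group of 2 libraries.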

Additional observations from a re-analysis of the deposited data

How the results depend on the processing

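The number of genes 2-fold or more apart, 417, became 1044 with a mean count of 10 or more, 2521 with no minimum beyond a count above 0 in both libraries, and 230 on log2(TPM + 1). The median share of a leading transcript rose from 65.1% to 79.6% when expected counts replaced TPM, an alternative added after the data were seen. The ratio of Csf1 to Csf1r, 0.224, was 0.229 in the second quantification, 0.190 on expected counts and 0.174 on the leading coding transcripts, also added after the data were seen. The Csf2rb2 share of the pair, 60.03% of counts, was 59.5% in the second quantification, 49.7% on TPM and 60.5% on the leading coding transcripts. Csf2 stayed lower in replicate 2 under every scaling run, at a log2 ratio of -3.76 with DESeq2 size factors, -3.84 in the second quantification and -3.22 on log2(TPM + 1), and Csf3 ranged from -1.16 on log2(TPM + 1) to -3.01. Of the other values recomputed, 48 moved by more than the spread between replicates, 110 did not. Among those 110 are means with 1 library left out. With n = 2 such a mean always moves by less than its SD, so these could not have counted as moved. The small log2 ratio of Csf2rb2, 0.07, changed sign on log2(TPM + 1) and on log2(TPM + 0.1), to -0.02 on both, and no other gene of the 8 changed sign. No paired analysis was possible because the labels give 1 group. Depth limits Csf3, at 42 and 7 counts, and Csf2 in replicate 2, at 26.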

Other observations

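The deposited lower and upper bounds of TPM did not always enclose the TPM beside them. For Csf1r they ran from 597 to 609 in replicate 1 and from 701 to 712 in replicate 2, below the TPM of 628 and 728 in both libraries. The authors also give a posterior mean TPM, another estimate of the same level. For Csf1r it averaged 654 over the libraries, against 678 for the TPM used here. The bounds need not be those of the TPM used here. For Csf2 the TPM of 22.6 and 1.52 lay inside the bounds in both libraries.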
